A study of Rattus norvegicus with 6 samples.

Results

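Receptor tyrosine kinases were read from messenger RNA of rat PAIII tumors as 10 genes, namely Axl, Mertk, Egfr, Erbb2, Erbb3, Met, Igf1r, Fgfr1, Pdgfra and Pdgfrb. They were found by their symbols, each of which stood on 1 row of a table of 17557 rows and 17030 symbols, so all 10 were measured. PAIII is a castration resistant prostate cancer line of the Lobund-Wistar rat, passaged from rat to rat, and all 6 rats carried it under the skin of the flank from 2 months of age. Rats A1, A6 and A12 received digitoxin, a cardiac glycoside, at 0.03 mg/kg each day from day 10, and rats B5, B9 and B14 received vehicle. Tumors were taken on day 40, and punches from viable regions of each gave 1 library per tumor, n = 3 in each group. By the design text the animals were not a random draw, since treated rats with low and control rats with high serum IL-6 and CINC-1 were chosen. The samples are separate tumors of a single passaged line, so p-values measure the spread between these 6 tumors.

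Receptor tyrosine kinases span the cell membrane, bind a ligand outside the cell and phosphorylate tyrosines inside it. Adaptors such as Grb2 and Shc1 dock on those tyrosines and pass the signal to the Ras and ERK kinases and to phosphoinositide kinase and Akt. In epithelial tumors the ErbB receptors, Met and Igf1r are known for driving growth and motility, Axl for its link with the mesenchymal state, and the PDGF receptors for marking fibroblasts and pericytes.

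Levels are FPKM, the fragments of a transcript divided by its length and by the mapped fragments of its library, so that genes can be compared per length. Summed over all rows, a library held between 651322 and 1025231 FPKM. The reads were not used here, so the depth is unknown and low values have no stated precision. An entry of 0 can be a failed estimate, as the collagen gene Col1a2 was listed at 0 in all 6 tumors. Fold changes are differences of mean log2(FPKM + 1), digitoxin minus vehicle, which understates the change of low mRNAs, and they were tested with limma over the 10749 rows whose mean reached 1 FPKM. Groups follow the labels throughout, but an earlier examination of these data raised a doubt over the labels of A1 and B9, so each direction holds for the libraries as labelled. The fold change of each of the 10 receptors without that pair is also given.

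The libraries differed in the tissue they held. The summed FPKM of 10 alveolar and airway genes reached 104418 in A1, 211879 in A6, 47731 in B5 and 58061 in B9 but only 19.9 in A12 and 26.8 in B14, where 5 of the 10 were listed at 0. The 10 fibroblast and pericyte genes summed to 3219 in A12 and 4746 in B14, above the 319 to 1012 of the other tumors. The 10 genes of dividing cells summed to 73.6 in A6 and to between 391 and 754 elsewhere. All 10 had a lower mean with digitoxin (median log2 fold change -1.21), beside 64.9% of all rows. A higher mean was found for 9 of the 10 alveolar and airway genes. Of the defining prostate genes, Pbsn was listed at 0 in every tumor, and Hoxb13 was at or near 0. Tmprss2 and Tgm4 of the same list of 6 genes were present, at 7.69 to 34.1 and 5.22 to 16.0 FPKM, and the list summed to between 13.2 and 45.1 FPKM. Of 9 general epithelial genes, the keratins Krt8 and Krt19 were abundant, at 398 FPKM or more. Of the same 9, 8 reached a mean of 1 FPKM, and 1 was listed at 0 in A6 and 1 in B5. The 9 summed to between 1524 and 5829 FPKM. In bulk tissue fewer cells of a type and less RNA per cell cannot be told apart.

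Across the 10 receptors, 8 had a lower and 2 a higher mean log2 level with digitoxin, beside 64.9% lower among all rows tested, and none of the differences passed the test. With median-of-ratios scaling of the libraries, 7 of the 10 and 48.6% of all rows were lower. At an adjusted p under 0.05 limma called 0 of the 10 and 0% of all rows. At an unadjusted p under 0.05 it called 0 of the 10 and 36 rows, or 0.335%, and blocking on replicate number gave 0 of the 10 and 446 rows. The digitoxin and vehicle tumors overlapped for every receptor, while 4.16% of all rows had groups that did not overlap. The median log2 fold change of the 10 was -0.57, against -0.16 for all rows, and it ran from -0.84 without B5 to -0.14 without A6. Met stood lowest, at -1.60, and Pdgfra highest, at 0.17.

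**Figure D1:**
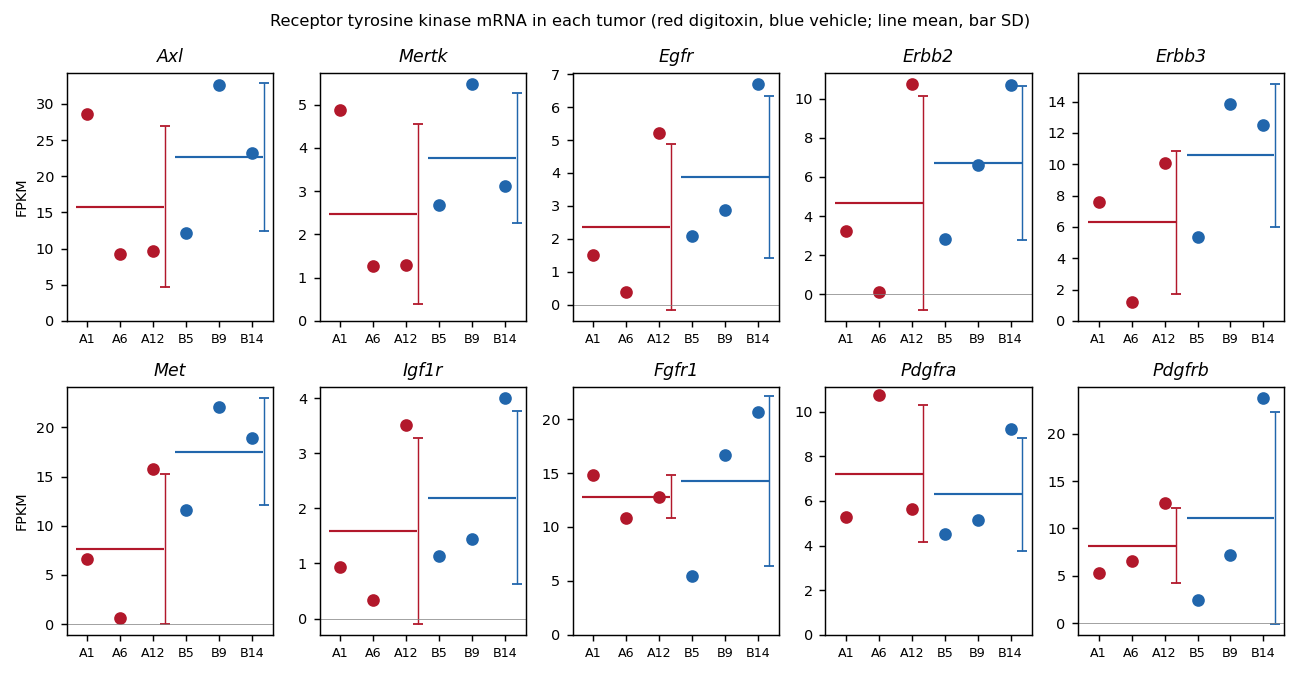
FPKM of each receptor in each tumor, digitoxin in red and vehicle in blue, with the group mean as a line and the SD as a bar (n = 3). The groups overlap in every panel, and A6 is the lowest tumor for 7 of the 10 receptors.

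By mean FPKM over the 6 tumors Axl stood first at 19.2 ± 10.3 (SD, n = 6), followed by Fgfr1 at 13.5, Met at 12.6, Pdgfrb at 9.66, Erbb3 at 8.43, Pdgfra at 6.76, Erbb2 at 5.69, Egfr at 3.13, Mertk at 3.11 and Igf1r at 1.89. Neighbours in this order were close relative to their spread. Axl exceeded Fgfr1 in 4 of 6 tumors, Fgfr1 exceeded Met in 3, and Egfr exceeded Mertk in 2, whereas Erbb3 exceeded Pdgfra and Erbb2 exceeded Egfr in 5 each. The highest receptor of a tumor was Axl in A1, B5 and B9, Fgfr1 in A6, Met in A12 and Pdgfrb in B14. Axl made up 36.3% of the summed FPKM of the 10 in A1 but 11.0% in A12. That sum came to 78.9 in A1, 41.2 in A6 and 87.2 in A12, and to 50.3 in B5, 114 in B9 and 133 in B14, so it was lowest in a treated tumor and highest in a control with overlap between the groups.

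Promoter sequences of Axl with Mertk and of Egfr with Igf1r are shown because each pair ranked the 6 tumors in the same order. The RefSeq sequences of build GRCr8 run from 250 bases before to 50 bases after the start of the gene, and 7 of the 10 receptors matched. Axl lies at chr1:90423960-90424259 on the minus strand, and Mertk at chr3:136392324-136392623, Egfr at chr14:95378376-95378675 and Igf1r at chr1:130959747-130960046 on the plus strand. Capitals mark matches on either strand to the GC box GGGCGG and, in Igf1r, to the E-box CACGTG.
Axl: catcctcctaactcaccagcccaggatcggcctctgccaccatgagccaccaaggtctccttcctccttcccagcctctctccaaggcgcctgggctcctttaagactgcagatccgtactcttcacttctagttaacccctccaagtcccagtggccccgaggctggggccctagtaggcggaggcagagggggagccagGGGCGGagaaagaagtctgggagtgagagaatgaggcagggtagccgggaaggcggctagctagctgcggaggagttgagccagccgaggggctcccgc
Mertk: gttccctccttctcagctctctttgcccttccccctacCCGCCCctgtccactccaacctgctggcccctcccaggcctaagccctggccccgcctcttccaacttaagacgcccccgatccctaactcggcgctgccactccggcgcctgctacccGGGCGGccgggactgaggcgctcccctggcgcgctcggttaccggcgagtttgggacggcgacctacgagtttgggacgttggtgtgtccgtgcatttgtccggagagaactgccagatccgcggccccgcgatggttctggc
Egfr: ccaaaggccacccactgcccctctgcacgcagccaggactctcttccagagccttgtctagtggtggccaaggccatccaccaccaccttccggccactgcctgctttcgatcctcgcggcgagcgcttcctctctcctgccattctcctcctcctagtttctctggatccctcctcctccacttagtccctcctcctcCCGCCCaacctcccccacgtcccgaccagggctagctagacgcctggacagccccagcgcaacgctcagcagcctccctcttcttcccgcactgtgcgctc
Igf1r: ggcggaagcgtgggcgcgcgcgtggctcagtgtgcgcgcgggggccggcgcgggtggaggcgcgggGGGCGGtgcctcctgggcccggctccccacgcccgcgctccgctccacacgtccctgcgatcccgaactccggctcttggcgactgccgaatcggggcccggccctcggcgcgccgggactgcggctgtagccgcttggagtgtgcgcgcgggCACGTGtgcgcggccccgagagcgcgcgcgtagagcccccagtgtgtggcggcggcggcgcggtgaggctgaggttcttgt

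A GC box was in the promoters of 5 of the 7 matched receptors, Axl, Mertk, Egfr, Erbb2 and Igf1r, and in 33.1% of all 33469 promoters of the same length. It began 49 bases before the start in Axl, 212 and 93 bases before it in Mertk, and 51 bases before it in Egfr. The E-box of Igf1r began 31 bases before the start, and 6.42% of all promoters held this motif. Searches on both strands for CCAAT found Erbb2 and Pdgfra (37.5% of all promoters), and the AP-1 motif TGANTCA was in Pdgfra (7.33%). TATAAA (14.2%) and the NF-kappaB consensus (4.18%) had no match in the 7 windows. The median GC content of the 7 was 64.3%, against 51.7% for all promoters.

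Axl and Mertk are the TAM receptors, which bind Gas6 and protein S and are known for the uptake of dying cells by macrophages. Axl (chr1:83812117-83840542 as deposited, rat build not given in the sources used here) was at 28.6 FPKM in A1, 9.18 in A6 and 9.59 in A12, and at 12.1 in B5, 32.6 in B9 and 23.2 in B14. The treated tumors A6 and A12 lay below all controls, and A1 lay above B5 and B14. The means were 15.8 ± 11.1 with digitoxin and 22.6 ± 10.2 with vehicle (SD, n = 3), which gave a log2 difference of -0.58 (standard error 0.56, 95% interval -1.93 to 0.77, adjusted p = 0.926 by limma). It was -1.08 without A1, -0.27 without B9 and -0.78 without both.

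Mertk (chr3:128671361-128777078) was at 4.88 FPKM in A1, 1.26 in A6 and 1.28 in A12, and at 2.67 in B5, 5.47 in B9 and 3.13 in B14. Its tumors ranked as those of Axl did, from A6 through A12, B5, B14 and A1 to B9. The log2 fold change was -0.56 (standard error 0.50, adjusted p = 0.926 by limma). It was -1.02 without A1, -0.32 without B9 and -0.78 without both. Axl exceeded Mertk in 6 of 6 tumors. The log2 ratio of their FPKM + 1 was 2.24 ± 0.082 with digitoxin and 2.25 ± 0.37 with vehicle (SD, n = 3), and the difference of -0.015 had p = 0.9 in a two-sided exact permutation test, in which 3 against 3 tumors cannot go below 0.1. The macrophage genes summed to 898, 576 and 804 FPKM in A1, A6 and A12 and to 941, 630 and 1391 in B5, B9 and B14, an order unlike that of Axl. Of the 10 macrophage genes, 8 had a lower mean with digitoxin, beside 64.9% of all rows, and none was listed at 0. Marco stood highest, at a log2 fold change of 0.91, and Mpeg1 lowest, at -1.59 (-1.02 without A6). Mpeg1 had an unadjusted p of 0.0330 by limma, beside 0.335% of all rows under 0.05. The part of macrophages in these values was not tested.

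The ligand Gas6 was far above its receptors in most tumors, at 279.7 FPKM in A1, 406 in A6 and 19.6 in A12, and at 127 in B5, 222 in B9 and 38.5 in B14. It was lowest in A12 and B14, the tumors with almost no alveolar transcripts. The log2 fold change was 0.35 (standard error 1.24), but it was -0.45 without A6, 1.70 without A12 and 1.00 without A12 and B14. Protein S, encoded by Pros1, was also lowest in A12 and B14, at 5.97 and 13.9 FPKM, against 15.5 to 24.8 in the others. The log2 ratio of Axl to Gas6 was below 0 in all 6 tumors and was -3.18 ± 2.18 with digitoxin and -2.24 ± 1.35 with vehicle (SD, n = 3), with an exact permutation p = 0.5. The difference of -0.93 between the groups became 0.14 without A6 and -2.04 without A12. Tyro3, the other TAM receptor, ran from 2.44 to 3.78 FPKM, and its log2 fold change was 0.14 (standard error 0.31, and 0.028 without A6 and 0.24 without B5).

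Egfr binds EGF-like ligands, Erbb2 is the partner without a ligand of its own, and Erbb3 binds neuregulins. Egfr (chr14:100438988-100617315) was at 1.51 FPKM in A1, 0.401 in A6 and 5.21 in A12, and at 2.09 in B5, 2.88 in B9 and 6.69 in B14. Erbb2 (chr10:86163530-86187663) was at 3.22, 0.10 and 10.7 FPKM in A1, A6 and A12, and at 2.82, 6.61 and 10.7 in B5, B9 and B14. Both were highest in A12 and B14 and lowest in A6, where Erbb2 was lower by a factor of 107 than in its highest tumor. Erbb3 (chr7:2964639-2983936) was at 7.60, 1.22 and 10.1 FPKM in A1, A6 and A12, and at 5.36, 13.8 and 12.5 in B5, B9 and B14, so it was also lowest in A6 but highest in B9.

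None of the ErbB receptors passed the test. The log2 fold change of Egfr was -0.69 (standard error 0.66), that of Erbb2 -0.88 (standard error 0.92) and that of Erbb3 -0.87 (standard error 0.70), each with an adjusted p of 0.926 by limma. Without A6 they were -0.20, 0.012 and -0.15, so the direction of Erbb2 rested on that tumor. Without A12 they were -1.27, -1.69 and -1.31, and without A1 and B9 they were -0.72, -0.90 and -0.90. With a pseudocount of 0.1 Egfr was -1.13 and Erbb2 -1.63, and as a log2 ratio of group means Erbb2 was -0.52. The low values in A6 came with low sums of the genes of dividing cells (73.6 FPKM) and of 9 general epithelial genes (1524 FPKM, against 3351 to 5829 elsewhere), and their part was not tested. Of all rows tested, A6 was lowest for 50.4%, against 7 of the 10 receptors.

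The log2 ratio of Erbb3 to Erbb2 was 0.65 ± 0.64 with digitoxin and 0.64 ± 0.39 with vehicle (SD, n = 3), with an exact permutation p = 1, and Erbb3 was the higher in 5 of 6 tumors. The log2 ratio of Egfr to Erbb2 was -0.44 ± 0.69 and -0.63 ± 0.33 (SD, n = 3; exact permutation p = 0.8), and Egfr was the higher only in A6. Adjusted over the 6 ratios tested, all p-values were 1.

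The EGF-like ligands differed in how widely they spread. Tgfa was at 20.5, 2.89 and 113 FPKM in A1, A6 and A12, and at 53.4, 42.4 and 113 in B5, B9 and B14. Hbegf was at 16.6, 3.79 and 73.3 FPKM, and at 32.0, 32.0 and 78.6, in the same order. Both were high in A12 and B14 and low in A6, as Egfr was. Nrg1, a neuregulin that binds Erbb3, ran likewise, from 1.18 FPKM in A6 to 11.5 in A12 and 10.8 in B14. Areg stayed between 12.5 and 19.8 FPKM, and Nrg4 was listed at 0 in A12 and at 0.689 in B14 against 2.34 or more elsewhere. The log2 fold changes were -1.60 for Tgfa, -1.26 for Hbegf, -0.75 for Nrg1, -0.32 for Areg and 0.053 for Nrg4 (standard errors 1.19, 0.99, 0.70, 0.25 and 0.98). Without A6, Tgfa stood at -0.38, Hbegf at -0.29 and Nrg1 at -0.21, without A12 they stood at -2.82, -2.27 and -1.47, and Nrg4 was -0.53 without A1 and 1.01 without A12. Egf itself was listed at 0 in all 6 tumors.

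Met, the receptor of hepatocyte growth factor, showed the largest difference in mean of the 10. Met (chr4:45382346-45459515) was at 6.62 FPKM in A1, 0.625 in A6 and 15.7 in A12, and at 11.6 in B5, 22.1 in B9 and 18.9 in B14. The groups overlapped through A12 alone, which lay above B5, while A1 and A6 lay below every control. The means were 7.66 ± 7.60 and 17.5 ± 5.40 FPKM (SD, n = 3), a ratio of 0.436. The log2 fold change was -1.60 (standard error 0.85, 95% interval -3.67 to 0.47, unadjusted p = 0.108, adjusted p = 0.926 by limma). With the replicate number as a block the unadjusted p was 0.0576.

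The size of the Met difference depended on A6 and A12. It was -0.67 without A6 and -2.35 without A12, and -1.60 without A1 and B9. Without A12 and B14 it was -2.28, with an unadjusted p of 0.0251 and an adjusted p of 0.392 by limma, within a range of adjusted p from 0.252 to 1.00 over the alternatives. The ligand Hgf had a mean under 1 FPKM and was not tested. It was at 1.13, 0.0920 and 0.207 FPKM in A1, A6 and A12 and at 0.722, 2.60 and 1.23 in B5, B9 and B14. Met exceeded Hgf in 6 of 6 tumors, and the log2 ratio was 2.07 ± 1.62 with digitoxin and 2.90 ± 0.24 with vehicle (SD, n = 3; exact permutation p = 0.5).

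Igf1r, the receptor of insulin-like growth factors, had the lowest mean of the 10. Igf1r (chr1:129985803-130265822) was at 0.936 FPKM in A1, 0.336 in A6 and 3.50 in A12, and at 1.14 in B5, 1.45 in B9 and 3.99 in B14. Its tumors ranked as those of Egfr did, from A6 through A1, B5, B9 and A12 to B14. The log2 fold change was -0.39 (standard error 0.59, adjusted p = 0.931 by limma), and it was -0.0073 without A6, -0.88 without A12, -0.41 without A1 and B9 and -0.76 with a pseudocount of 0.1. The ligand Igf1 stayed between 12.9 and 22.7 FPKM (log2 fold change -0.14, standard error 0.30, -0.31 without B5 and 0.038 without A12), and Igf2 was under 1 FPKM in every tumor.

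IGF-binding proteins bind those ligands outside the cell, and 3 of the 6 tested were lower with digitoxin, beside 64.9% of all rows. Igfbp2 was highest at 1.15 (standard error 1.18) and Igfbp5 lowest at -1.02 (standard error 1.11), on the log2 fold change scale. Igfbp2 was 0.38 without B14 and 2.36 without A12, and Igfbp5 was 0.14 without B9 and -1.79 without B14. With the replicate block, Igfbp2 and Igfbp6 had unadjusted p-values of 0.0259 and 0.0328 by limma, and both had an adjusted p of 0.638. The median was 0.031, and it ran from -0.0047 without B5 to 0.43 without A12, and was -0.047 without A1 and B9 and 0.33 without A12 and B14. Igfbp2, Igfbp5, Igfbp6 and Igfbp7 were lowest in A12 and B14, and Igfbp3 and Igfbp4 were highest there.

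**Figure D2:**
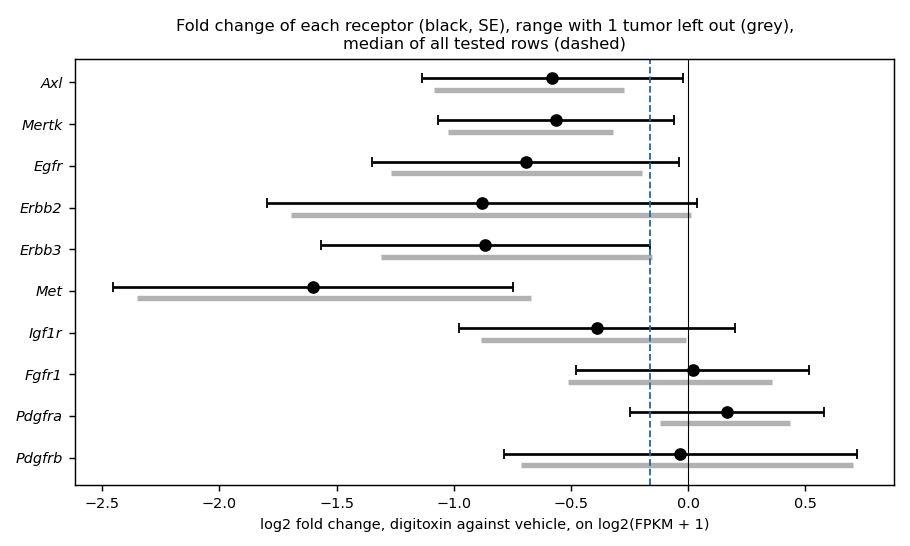
Log2 fold change of each receptor on log2(FPKM + 1), digitoxin minus vehicle, with the standard error in black and the range over fits with 1 tumor left out in grey, and the median of all rows tested (-0.16) dashed. Met has the lowest estimate, -1.60, and the grey ranges of Erbb2, Fgfr1, Pdgfra and Pdgfrb cross 0.

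Fgfr1, a receptor of fibroblast growth factors, differed little in mean. Fgfr1 (chr16:70925603-70965251) was at 14.9 FPKM in A1, 10.8 in A6 and 12.8 in A12, and at 5.49 in B5, 16.7 in B9 and 20.7 in B14. The treated tumors lay inside the range of the controls. The means were 12.8 ± 2.01 and 14.3 ± 7.87 FPKM (SD, n = 3), and the log2 fold change was 0.019 (standard error 0.50, 95% interval -1.19 to 1.23, adjusted p = 0.996 by limma). The log2 ratio of the group means was -0.15, so the direction depended on the scale. The fitted value stood at -0.51 without B5, 0.36 without B14, 0.11 without A1 and B9 and 0.20 with median-of-ratios scaling. Of the listed fibroblast growth factors, Fgf1, Fgf7, Fgf9 and Fgf18 were tested, and which of them act on Fgfr1 was not examined. Their log2 fold changes were -0.40, -0.56, -0.34 and 0.17 (standard errors 0.50, 0.59, 0.57 and 0.96). Fgf1 was -0.84 without B14 and -0.022 without B9, Fgf7 and Fgf9 were -0.94 and -0.81 without A12 and -0.014 and 0.098 without A6, and Fgf18 was -0.47 without A1 and 1.12 without A12.

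Pdgfra and Pdgfrb bind the platelet-derived growth factors. Pdgfra (chr14:35356433-35409311) was at 5.30 FPKM in A1, 10.8 in A6 and 5.62 in A12, and at 4.52 in B5, 5.16 in B9 and 9.22 in B14. It was the only receptor of the 10 with its highest value in A6, and its highest value exceeded the lowest by a factor of only 2.38. Pdgfrb (chr18:55596757-55637692) was at 5.35, 6.52 and 12.7 FPKM in A1, A6 and A12, and at 2.46, 7.22 and 23.7 in B5, B9 and B14. It was highest in B14 and A12, the tumors with the highest sums of fibroblast and pericyte genes, whose part was not tested.

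The log2 fold change of Pdgfra was 0.17 (standard error 0.41, adjusted p = 0.950 by limma) and that of Pdgfrb was -0.033 (standard error 0.75, adjusted p = 0.996 by limma). Pdgfra became -0.12 without A6 and 0.44 without B14, and Pdgfrb became 0.70 without B14 and -0.71 without B5. Without A1 and B9 they were 0.23 and 0.14. The means of Pdgfrb were 8.20 ± 3.95 and 11.1 ± 11.2 FPKM (SD, n = 3), a log2 ratio of -0.44, so its size and direction depended on the scale. The log2 ratio of Pdgfra to Pdgfrb was above 0 in A6 and B5, at 0.64 and 0.68, and -1.05 in A12 and -1.27 in B14. Its group means were -0.14 ± 0.85 and -0.34 ± 0.98 (SD, n = 3; exact permutation p = 0.8). Of the ligands, Pdgfa ran from 72.7 to 146 FPKM, Pdgfb from 6.90 to 22.2 and Pdgfc from an entry of 0 in A6 to 11.1 in A12 and B14. In log2 fold change they stood at 0.13, 0.40 and -1.07 (standard errors 0.33, 0.55 and 0.92). Pdgfa was -0.19 without A12 and 0.31 without A6, Pdgfb was 0.086 without A1 and 0.90 without B9, and Pdgfc was -1.85 without A12 and -0.048 without A6.

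**Figure D3:**
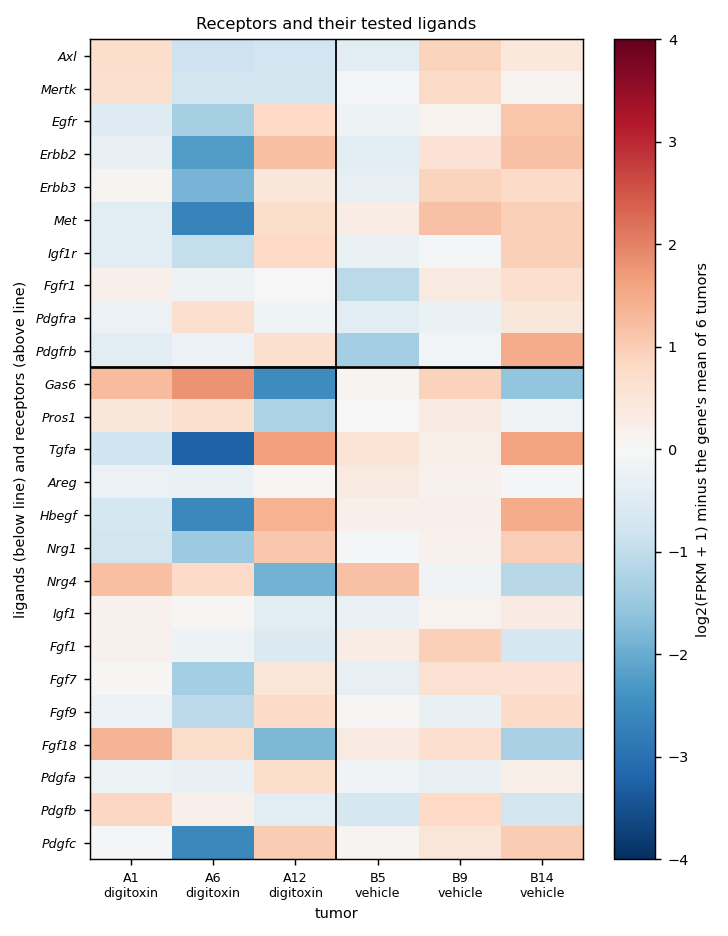
Level of each receptor (above the line) and each tested ligand (below it) in each tumor, as log2(FPKM + 1) minus the mean of the gene over the 6 tumors, red higher and blue lower. A6 is low for Met, Erbb2 and Tgfa, and Gas6 is low in A12 and B14.

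Of the 25 ligands listed, 24 were in the table and 15 were tested. Of these, 10 were lower and 5 higher with digitoxin, beside 64.9% lower among all rows, with a median log2 fold change of -0.32. With median-of-ratios scaling 8 were lower and the median was -0.14, and with 1 tumor left out it ran from -0.47 without A1 to -0.10 without B9. None passed limma's test at an adjusted or unadjusted p under 0.05, and none had groups that did not overlap. With the replicate block, Tgfa (unadjusted p = 0.0356) and Hbegf (unadjusted p = 0.0427) were under 0.05 by limma, both with an adjusted p of 0.638. Tgfa was lowest at -1.60 and Pdgfb highest at 0.40. A12 and B14 were the highest tumors for 6 of the 15 and the lowest for 5, beside 30.1% and 29.3% of all rows.

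Other receptor tyrosine kinases were split. Of 25 tested, 13 were lower and 12 higher, beside 64.9% lower among all rows. The median of -0.056 was 0.055 with median-of-ratios scaling and 0.21 without A12 and B14. With 1 tumor left out it ran from -0.40 without A1 to -0.045 without A12. Flt1, a VEGF receptor, was lowest at -1.49 (standard error 1.17) and Tek, the angiopoietin receptor, highest at 0.67 (standard error 0.90). Flt1 was -0.27 without A6 and -2.60 without A12, and Tek was 0.025 without B14 and 1.5 without A12. With the replicate block, Tek and Ephb2 had unadjusted p-values of 0.0446 and 0.0497 by limma, and both had an adjusted p of 0.638. Tek was lowest in A12 and B14, at 9.60 and 7.78 FPKM, against 25.1 or more elsewhere, and Flt1 was highest there, at 60.0 and 69.4 FPKM. A12 and B14 were the highest tumors for 12 of the 25, among them Kit, Epha2 and Mst1r, and the lowest for 10, among them Kdr and Tie1. The shares of all rows were 30.1% and 29.3%. The FGF receptors parted in these tumors, since Fgfr2 was at 0.0922 FPKM in A12 and 0.393 in B14 against 14.2 to 36.4 elsewhere, and Fgfr3 at 0.177 and 0.174 against 9.83 to 32.4, while Fgfr1 was at 12.8 and 20.7. Fgfr2, Fgfr3, Ret, Ephb2, Kit, Epha2, Mst1r, Kdr, Tie1 and Tyro3, and above Egf, Igf2, Igfbp3, Igfbp4, Igfbp6 and Igfbp7, fall outside the naming rule and were chosen after their values were seen.

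**Figure D4:**
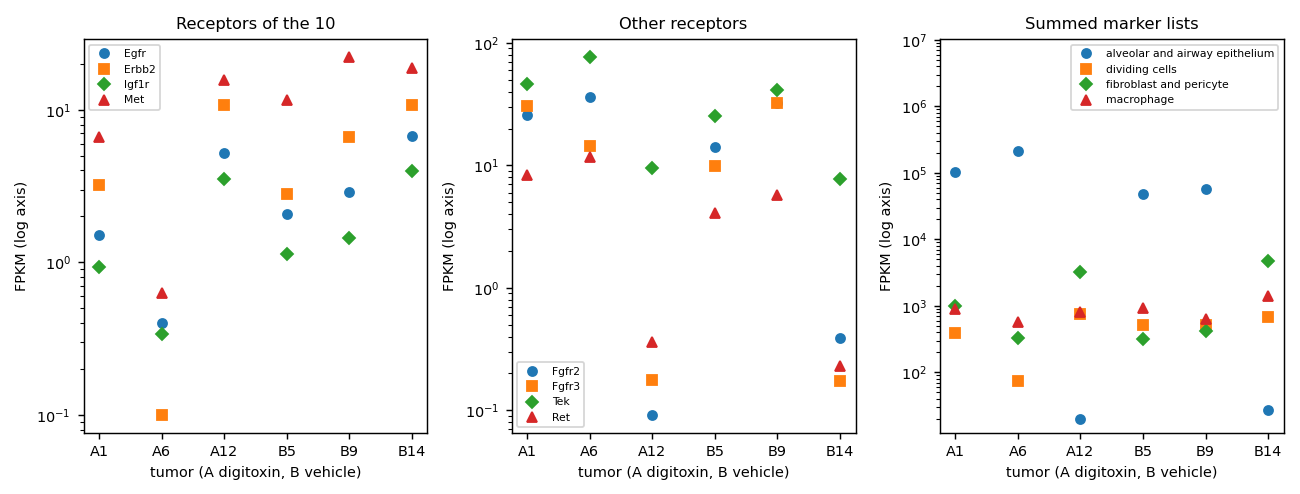
FPKM on log axes in each tumor for 4 of the 10 receptors, for 4 other receptor tyrosine kinases, and for the sums of 4 marker lists. Egfr, Erbb2 and Igf1r are highest in A12 and B14 and lowest in A6, and Fgfr2, Fgfr3 and Ret are lowest in A12 and B14, where the alveolar and airway sum is 19.9 and 26.8.

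Adaptors and effectors carry the signal into the cell, and 25 of the 30 tested were lower with digitoxin (median -0.40), beside 64.9% of all rows. With median-of-ratios scaling 18 were lower, with a median of -0.22, and the median was -0.15 without A6 and -0.61 without A12. None passed limma's test at an adjusted or unadjusted p under 0.05, although with the replicate block Nras, a Ras protein named after its value was seen, had an unadjusted p of 0.0308 (adjusted p = 0.638). The groups did not overlap for 3 of the 30, beside 4.16% of all rows. Shc1, an adaptor, was at 131, 30.4 and 163 FPKM in A1, A6 and A12 and at 176, 188 and 177 in B5, B9 and B14 (log2 fold change -1.04, standard error 0.62). Pik3r1, a regulatory subunit of phosphoinositide kinase, was at 5.37, 1.51 and 5.34 FPKM and at 6.06, 11.6 and 6.08 (-0.88, standard error 0.50). Hras, a Ras protein, was higher in every treated tumor, at 61.7, 70.3 and 66.3 FPKM against 60.9, 44.7 and 50.9 (0.35, standard error 0.21). Crk, an adaptor, was lowest at -1.63 (standard error 1.15) and Map2k2, a kinase that activates ERK, highest at 0.35 (standard error 0.24). Without A6, Shc1 was -0.30, Pik3r1 -0.43, Crk -0.30 and Map2k2 0.17, and without A12 Crk was -2.64.

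Negative regulators, which switch receptor signals off, were lower for 17 of 21 tested (median -0.41), beside 64.9% of all rows. With median-of-ratios scaling 13 were lower (median -0.27), beside 48.6% of all rows. As deposited, without rescaling, the median was -0.82 without A12 and -0.16 without A6. The groups did not overlap for 1 of the 21, which was lower with digitoxin and is not named here, beside 4.16% of all rows. Dusp4, an ERK phosphatase, was lowest at -1.70 (standard error 1.42) and Grb10 highest at 0.45 (standard error 0.46). Dusp4 was -0.24 without A6 and -3.08 without A12, and Grb10 was 0.18 without B14 and 0.82 without A12.

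Immediate early and ERK-responsive genes, which rise when receptors signal, were lower for 11 of 15 tested, beside 64.9% of all rows. Their median was -0.31, and it was -0.87 without A12 and -0.12 without A6. Of the 15, 2 are also negative regulators, Dusp6 and Spry4. Fosl1 was lowest at -2.04 (standard error 1.59) and Ier2 highest at 0.63 (standard error 0.42), and they were -0.21 and 0.20 without A6 and -3.53 and 1.00 without A12. With median-of-ratios scaling 10 were lower and the median was -0.11. Fosl1 was at 39.3, 0.990 and 197 FPKM in A1, A6 and A12 and at 84.2, 80.7 and 159 in B5, B9 and B14, lowest in A6 as Egfr and Met were. A12 and B14 were the highest tumors for 10 of the 15 and the lowest for 4, beside 30.1% and 29.3% of all rows. None of the negative regulators or immediate early genes passed limma's test at an adjusted or unadjusted p under 0.05, but with the replicate block 4 of the 21 and 2 of the 15 had an unadjusted p under 0.05, beside 446 of the 10749 rows.

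**Figure D5:**
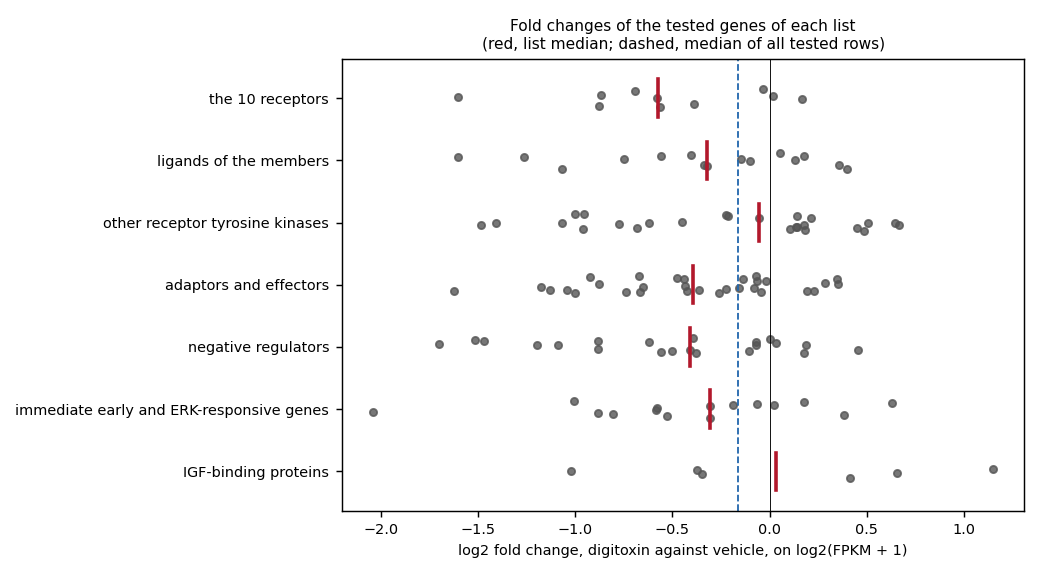
Log2 fold change, digitoxin minus vehicle on log2(FPKM + 1), of each tested gene in the 7 lists, with the list median in red and the median of all rows (-0.16) dashed. The medians run from -0.57 for the 10 receptors to 0.031 for the IGF-binding proteins.

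Genes with patterns most like Axl, Mertk, Egfr and Pdgfra were found over the 6 tumors as the smallest root mean square difference between log2(FPKM + 1) profiles, each centred on its own mean, among 10748 other rows. For Axl they were Tnfrsf11b, a decoy receptor of the TNF family, at 0.15, Mertk at 0.22 and Pde4b, a cyclic AMP phosphodiesterase, at 0.22. Mertk was nearest to Prps2, Pik3ap1 and Prex1, at 0.14, 0.14 and 0.15, and Axl came at rank 17. Egfr was nearest to Zfp36l2, Letm1 and Pgm1, at 0.073, 0.078 and 0.093, with Igf1r at rank 124 and 0.20. Pdgfra was nearest to Vldlr, Spry4 and Serpina1, at 0.17, 0.18 and 0.19. The 6 points share libraries whose tissue content differs, as given above.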

How the data were processed

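Total RNA from punches of 6 tumors was made into TruSeq libraries by the authors and sequenced as single reads. The submitters' processing notes name CASAVA, FastQC, Bowtie2, TopHat2, Cufflinks and Cuffdiff. The deposited values are FPKM, per the file headers, and no scaling between libraries is stated. The notes name build hg19, a human build, while the loci lie on rat chromosomes, so the build is not settled. All 6 FPKM columns were matched to samples by name.

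The scripts ran under Python 3.11.15 with pandas 2.3.3, numpy 2.4.6, scipy 1.17.1 and, for plots, matplotlib 3.10.9. R 4.3.3 with limma 3.58.1 compared digitoxin with vehicle (lmFit, eBayes with a trend) on log2(FPKM + 1), two-sided, adjusted by Benjamini and Hochberg over the 10749 rows whose mean reached 1 FPKM. The fit was tested on simulated data. Cuffdiff, which needs reads, was not repeated. Within-tumor ratios were compared by exact permutation over 20 assignments. Named from each list were the tested ligands, genes with an unadjusted p under 0.05 or without overlap, and the highest and lowest fold changes. The 1 negative regulator without overlap was not named. Some results on single genes are not reported here. Alternatives were a pseudocount of 0.1, no filter, a minimum mean of 5 FPKM, median-of-ratios scaling, no trend, ratios of group means, a replicate block, and tumors left out. The receptors, lists and tests were chosen with earlier results of these data known.

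The replicate numbers were checked for pairing. Deviations from the group means correlated across rows at r = 0.426, 0.606 and 0.869 for replicates 1, 2 and 3, which counts as paired, but so did A1 and B9 (r = 0.644) and A6 and B5 (r = 0.612), and nothing in the labels says what a number marks.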

Additional observations from a re-analysis of the deposited data

How the results depend on the processing

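Over the 6 fits that each dropped 1 tumor, log2 fold changes ran from -1.08 to -0.27 for Axl, -1.02 to -0.32 for Mertk, -1.27 to -0.20 for Egfr, -1.69 to 0.012 for Erbb2, -1.31 to -0.15 for Erbb3, -2.35 to -0.67 for Met, -0.88 to -0.0073 for Igf1r, -0.51 to 0.36 for Fgfr1, -0.12 to 0.44 for Pdgfra and -0.71 to 0.70 for Pdgfrb. Erbb2 reversed without A6, Fgfr1 without A1 (-0.085) or B5 and as a ratio of group means (-0.15), and Pdgfra without A6 or B5 (-0.0082). Pdgfrb reversed with a pseudocount of 0.1 (0.019), median-of-ratios scaling (0.14), and without A1 (0.19), A6 (0.071), B14, both A12 and B14 (0.38) or both A1 and B9 (0.14). As a ratio of group means Pdgfrb was -0.44 and Erbb2 -0.52, with a pseudocount of 0.1 Egfr was -1.13, Erbb2 -1.63, Igf1r -0.76 and Fgfr1 0.038, and with median-of-ratios scaling Fgfr1 was 0.20 and Pdgfra 0.34. The causes were not tested. Lower receptors numbered 7 to 10 with a tumor left out and 5 of 7 at a minimum mean of 5 FPKM. Met alone had an unadjusted p under 0.05, without A12 and without both A12 and B14 (1 receptor each). Rows with an unadjusted p under 0.05 numbered 133 with no filter, 19 at a minimum mean of 5 FPKM, 446 with the replicate block, 1183 without A12 and B14, 11 without A1 and B9, and 13 to 2114 with a tumor left out (13 without A6 or B9, 2114 without A12). Rows past the adjusted threshold numbered 0 to 2 with a tumor left out (2 without B14) and 2 without A12 and B14. The replicate block called none of the 10 receptors at either threshold and, among the lists, took 2 ligands, 2 other receptor tyrosine kinases, 1 adaptor, 4 negative regulators, 2 immediate early genes and 2 IGF-binding proteins under an unadjusted p of 0.05, and none under an adjusted one. Median-of-ratios scaling moved the median of all rows from -0.16 to 0.016 and that of the other receptor tyrosine kinases to 0.055, which was 0.21 without A12 and B14. The median of the IGF-binding proteins was -0.089 with no filter, -0.0047 without B5, -0.047 without A1 and B9 and up to 0.43 without A12. Among ratios with a tumor left out, Axl to Mertk ran from -0.22 to 0.13 (0.19 with a pseudocount of 0.1, 0.15 without A12 and B14), Axl to Gas6 from -2.04 to 0.14, Egfr to Erbb2 from -0.21 to 0.43, Erbb3 to Erbb2 from -0.20 to 0.38 (-0.0094 without A1 and B9), Met to Hgf from -1.70 to -0.086 and Pdgfra to Pdgfrb from -0.27 to 0.71. Depth is unknown here, so low FPKM such as those of Erbb2 and Met in A6 carry no known error.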
